A study of Mus musculus with 6 samples.

Results

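Translation elongation and release factors were followed in the I1DN leukemia of mice given AG636 or vehicle. The set was a fixed list of 9 genes, *Eef1a1*, *Eef1b2*, *Eef1d*, *Eef1g*, *Eef1e1*, *Eef2*, *Eef2k*, *Etf1* and *Gspt1*, found by symbol among the 54838 genes of the deposited count table. All 9 were present, and all 9 had enough counts to be among the 11092 genes tested. I1DN is a murine acute myeloid leukemia on a C57BL/6 background that carries IDH1R132H, DNMT3AR882H and NrasG12D in both groups. It was made by transducing fetal liver stem and progenitor cells with constructs for the mutant genes, and the leukemia was then passed into sublethally irradiated congenic Ptprca mice. AG636 is an inhibitor of DHODH, an enzyme of de novo pyrimidine synthesis, and 3 mice received it b.i.d. by gavage at 100 mg/kg while 3 mice received vehicle. The duration of treatment is stated in conflicting ways for this model and is not given here, and neither are the ages of the mice. Leukemic cells were sorted from bone marrow and spleen, and the gate is named as cKit+CD11b- for this model and as cKit-high CD11b-low in the account of the RNA work.

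Elongation is the stage of translation at which the ribosome adds amino acids to the growing chain. The GTPase eEF1A, encoded by *Eef1a1*, brings each aminoacyl-tRNA to the ribosome, and the exchange complex eEF1B reloads it with GTP. eEF1B consists of the exchange subunits encoded by *Eef1b2* and *Eef1d* and the scaffold subunit encoded by *Eef1g*. A second GTPase, eEF2, moves the ribosome along the mRNA and is inhibited when the kinase encoded by *Eef2k* phosphorylates it. At a stop codon eRF1, encoded by *Etf1*, recognizes the codon and releases the chain together with the GTPase eRF3, encoded by *Gspt1*. *Eef1e1* carries an elongation factor name, but its product, also called AIMP3, is known as a scaffold protein of the multisynthetase complex, which holds several aminoacyl-tRNA synthetases.

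Totals lay between 4634963 and 7906589 counts per library, and genes of the mitochondrial genome took between 2.92% and 4.50% of them. The libraries captured the 3′ end of polyadenylated transcripts, so counts do not scale with transcript length and levels are compared here for the same gene between mice only. Levels are CPM, counts per 1000000 counts of the library after its size was scaled. *Kit*, the marker of the sort, was detected in all 6 libraries at 31.8 to 46.3 CPM. The 5 markers of the sorted leukemia and progenitor cells summed to 1905 to 3588 CPM with vehicle and 1389 to 2890 CPM with AG636. All 7 markers of mature neutrophils had counts, and their summed level was 1016 to 2338 CPM with vehicle and 2839 to 5836 CPM with AG636, with 6 of the 7 higher by the test. All 6 markers of monocytes and macrophages had counts too, at a sum of 53.5 to 93.6 CPM with vehicle and 102 to 198 CPM with AG636, with 2 called higher. Sums for erythroid markers overlapped, at 1539 to 4436 and 1887 to 3142 CPM. Among the other lists, B cell markers summed to at most 19.1 CPM, T and NK cell markers to at most 4.34 CPM, and the stromal and endothelial list to at most 245.02 CPM, nearly all of it *Pecam1* (*Lepr* was at 0). In sorted bulk cells, fewer cells of a type and less RNA per cell cannot be told apart, and the part of the neutrophil and monocyte transcripts in the results below was not tested.

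Of the 9 factors, 6 were lower with AG636 and none was higher. The 3 subunits of the eEF1B exchange complex, both release factors and *Eef1e1* fell, whereas the GTPases *Eef1a1* and *Eef2* and the kinase *Eef2k* did not pass the threshold. A call is an adjusted p under 0.05 in the quasi-likelihood F test of edgeR, with p adjusted by Benjamini and Hochberg over all genes tested. Of all genes tested, 11.0% were called lower, 10.3% higher and 21.3% in either direction. With library size alone as the scaling, 913 genes were called lower and 1483 higher, against 1222 and 1146, and 4 of the 9 factors stayed called lower. At an adjusted p under 0.01, *Eef1d* and *Eef1g* were called lower, against 2.93% of all genes. Log2 fold changes of the 6 ranged from -0.87 to -0.30, and the median over all 9 was -0.72, against 0.029 over all genes tested. The levels of the 3 vehicle and the 3 AG636 mice did not overlap for the same 6 genes, each lower with AG636. The same held for 20.6% of all genes tested, with 20.5% apart in the higher direction and 41.1% in either. For these 6 the exact permutation test gave p = 0.1 (two-sided), the smallest that 3 mice against 3 allow. Summed over all 9 genes, the level was 7089 to 7307 CPM with vehicle and 6228 to 6295 CPM with AG636.

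**Figure D1:**
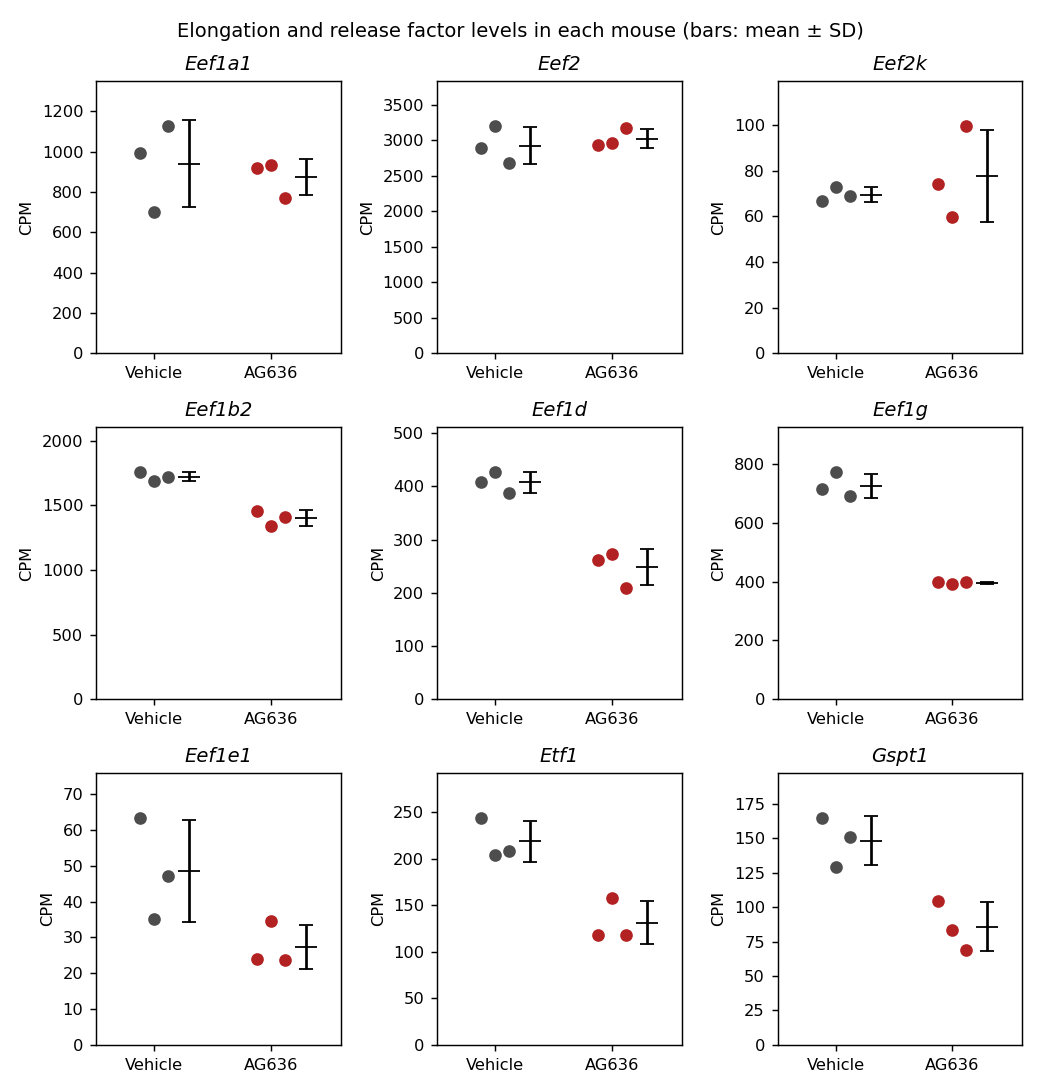
Level of each factor in CPM (linear axis from 0) in the 3 vehicle mice (grey points) and the 3 AG636 mice (red points), with the mean and SD of each group. The red points lie below all grey points for *Eef1b2*, *Eef1d*, *Eef1g*, *Eef1e1*, *Etf1* and *Gspt1*, and the groups overlap for *Eef1a1*, *Eef2* and *Eef2k*.

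**Figure D2:**
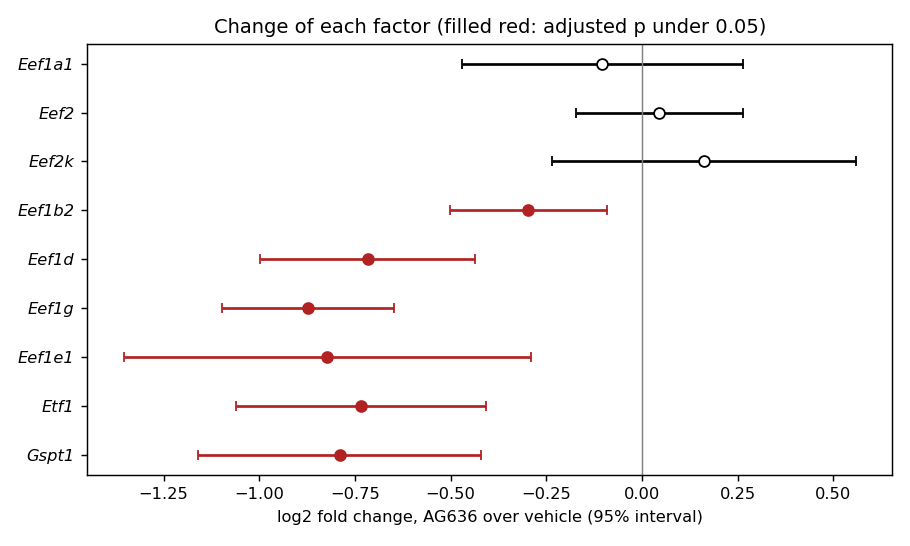
Log2 fold change of each factor, AG636 over vehicle, with its 95% interval from the edgeR fit. Filled red points have an adjusted p under 0.05, from -0.87 for *Eef1g* to -0.30 for *Eef1b2*, and the intervals of the 3 open points cross 0.

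*Eef1a1*, on chromosome 9 from 78478449 to 78489151 of mm10, had 992, 703 and 1126 CPM in vehicle mice 1 to 3 and 919.9, 934 and 771 CPM in AG636 mice 1 to 3. The vehicle mice spanned the AG636 mice on both sides. The log2 fold change was -0.10 with a standard error of 0.17 and a 95% interval from -0.47 to 0.26 (edgeR adjusted p = 0.680). It was 0.023 without vehicle replicate 3 and -0.29 without vehicle replicate 2, so that its sign and size rest on single vehicle mice. Processed pseudogenes of this gene are annotated, and 19.5% of the possible 75-base reads in the last 500 bases of its longest coding transcript also occur in transcripts of 4 other genes, which had 28 counts in all against 29273 for *Eef1a1*. One of these other genes, the microRNA gene *Gm26377*, is not such a copy. It overlaps exons of *Eef1a1* itself on the same strand over 108 bases and shares 7.98% of the possible reads. Reads that map to several places or lie in that overlap may have been dropped from the count of *Eef1a1*. How such reads were handled is not given in the sources used here.

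*Eef2*, on chromosome 10 from 81176631 to 81182498, had 2896 CPM, 3194 CPM and 2684 CPM with vehicle and 2932 CPM, 2955 CPM and 3171 CPM with AG636. All 3 AG636 values lay within the range of the vehicle mice. Its log2 fold change was 0.046 with a standard error of 0.099 and a 95% interval from -0.17 to 0.26 (edgeR adjusted p = 0.766), and it was -0.035 without vehicle replicate 3. *Eef1a1* and *Eef2* added up to between 3810.3 and 3897 CPM in the vehicle mice and to between 3852 and 3941 CPM in the AG636 mice, a narrower spread than either gene had alone among vehicle mice. The RefSeq window from 250 bases before to 50 after the annotated start of *Eef2*, chr10:81176381-81176680 on the plus strand of GRCm38.p6, is shown for a gene that was not called. It was searched on both strands for the core of the YY1 motif, CCATNTT, since the study examined this transcription factor at translation genes, and for the E-box CACGTG, the site of MYC and related factors. Capitals mark the E-box, which begins at base 208 of the window. The YY1 core had no match.
Eef2: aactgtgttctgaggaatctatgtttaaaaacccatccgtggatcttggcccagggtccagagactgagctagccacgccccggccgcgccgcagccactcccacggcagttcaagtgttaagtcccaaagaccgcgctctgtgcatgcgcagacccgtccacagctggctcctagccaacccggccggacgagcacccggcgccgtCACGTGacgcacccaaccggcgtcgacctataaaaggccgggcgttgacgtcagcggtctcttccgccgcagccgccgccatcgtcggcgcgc
Of 32851 such windows of mouse genes, 7.15% hold an E-box and 16.1% a YY1 core. These matches describe letters in a window and not binding.

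*Eef2k*, on chromosome 7 from 120842831 to 120907450, had 66.7 CPM, 73.1 CPM and 68.96 CPM with vehicle and 74.1 CPM, 59.8 CPM and 99.5 CPM with AG636. The AG636 mice lay on both sides of the vehicle mice and were more spread, with SDs of 20.1 and 3.26 CPM (n = 3 each). On the log2 scale AG636 differed from vehicle by 0.16 with a standard error of 0.18 and a 95% interval from -0.24 to 0.56 (edgeR adjusted p = 0.544), and it was -0.056 without AG636 replicate 3. Among 16 tested genes known to act on this kinase or on phosphorylated eEF2, 1 was called lower (6.25%) and 0 higher. Over all genes tested, 11.0% were called lower. The median log2 fold change of the 16 was -0.071. The gene called was *Prkag1*, a regulatory subunit of AMP-activated protein kinase, at 217 ± 26.8 CPM with vehicle and 153 ± 28.3 CPM with AG636 (SD, n = 3; log2 fold change -0.50, edgeR adjusted p = 0.0440). One gene of that list of 17, *Prkaa2*, had 0 counts in every library.

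All 3 genes of the eEF1B complex fell. *Eef1g*, on chromosome 19 from 8967041 to 8978479, had 715, 773 and 693 CPM with vehicle and 399.7, 392 and 398 CPM with AG636. The AG636 mice were close to each other, at 397 ± 3.84 CPM (SD, n = 3), and far below the lowest vehicle mouse. The difference on the log2 scale was -0.87 ± 0.10 (standard error, edgeR adjusted p = 0.00203), and the AG636 mean was 54.6% of the vehicle mean. By adjusted p this gene ranked 26 among all 11092 genes tested, and by size of decrease it ranked 547. A processed pseudogene shares 4.46% of the possible reads at its end and had 30 counts against 19130.

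*Eef1d*, on chromosome 15 from 75894205 to 75909556, had 407 CPM, 427 CPM and 388 CPM with vehicle and 262 CPM, 272 CPM and 209 CPM with AG636. The groups were separate, and AG636 mouse 3 was the lowest. Its log2 fold change was -0.72 ± 0.13 (standard error, edgeR adjusted p = 0.00640), and the AG636 mean was 60.8% of the vehicle mean. Exons of *Eef1d* overlap those of *Naprt* on the same strand over 277 bases, and *Naprt* had 361 counts against 11067.

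*Eef1b2*, on chromosome 1 from 63176825 to 63180486, had 1757 CPM, 1688 CPM and 1723 CPM with vehicle and 1460.4 CPM, 1339 CPM and 1407 CPM with AG636. Mice of the same group were close, and no AG636 mouse reached the lowest vehicle mouse. The log2 fold change of -0.30 (standard error 0.092) was the smallest among the 6 lower factors, at 81.4% of the vehicle level, and its adjusted p of 0.0455 (edgeR) was just under the threshold. Its adjusted p in edgeR was between 0.0545 and 0.121 when any single mouse was left out (6 fits), and 0.119 with library size alone, so this call did not hold there, while the log2 fold change stayed between -0.33 and -0.21. The promoter window of this gene, chr1:63176581-63176880 on the plus strand of GRCm38.p6, is shown because it is one of 2 member promoters that hold the YY1 core. Capitals mark the core, which lies on the opposite strand and begins at base 85 of the window. Exons of *Eef1b2* overlap *Ndufs1* on the opposite strand over 9 bases. They also overlap *Gm27390*, which had 0 counts, on the same strand over 176 bases, and reads there may have been dropped.
Eef1b2: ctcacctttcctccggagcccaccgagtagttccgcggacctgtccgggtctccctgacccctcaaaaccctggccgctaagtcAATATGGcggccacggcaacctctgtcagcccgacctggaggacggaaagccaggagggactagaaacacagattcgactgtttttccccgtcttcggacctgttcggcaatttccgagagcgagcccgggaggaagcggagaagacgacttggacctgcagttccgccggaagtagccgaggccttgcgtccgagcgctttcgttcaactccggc

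Summed over the 3 eEF1B genes, the level was 2857 ± 45.8 CPM with vehicle and 2047 ± 65.4 CPM with AG636 (SD, n = 3), 71.6% of the vehicle mean. For every 100 *Eef2* counts there were 24.7, 24.2 and 25.8 *Eef1g* counts with vehicle and 13.6, 13.3 and 12.6 with AG636. The corresponding numbers for *Eef1d* were 14.1, 13.4 and 14.5 with vehicle and 8.93, 9.22 and 6.60 with AG636. These ratios within a library do not depend on its size, and in both cases the groups did not overlap. For *Eef1b2* there were 52.8 to 64.2 counts per 100 *Eef2* counts with vehicle and 44.4 to 49.8 with AG636. Against *Eef1a1*, whose level varied more between vehicle mice, the ratio of *Eef1g* and of *Eef1d* did not overlap between the groups, and that of *Eef1b2* did, at 153 to 239.9 and 143 to 183 counts per 100. The sums and these ratios, except *Eef1b2* to *Eef1a1*, were chosen after the values were seen and are given without a test.

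*Eef1e1*, on chromosome 13 from 38644207 to 38659058, had 63.3 CPM, 35.1 CPM and 47.0 CPM with vehicle and 24.0 CPM, 34.4 CPM and 23.6 CPM with AG636. The groups did not overlap, but the lowest vehicle mouse and the highest AG636 mouse were nearly equal. These levels rest on 113 to 355 counts per library, the fewest of the 9 genes. The log2 fold change was -0.82 ± 0.24 (standard error, edgeR adjusted p = 0.0362). Its adjusted p in edgeR was 0.105 without vehicle replicate 1, 0.0530 without vehicle replicate 3, 0.111 without AG636 replicate 1, 0.124 without AG636 replicate 3 and 0.0517 with library size alone. The promoter window, chr13:38658979-38659278 on the minus strand of GRCm38.p6, holds the other YY1 core among the members, in capitals, which lies on the opposite strand and begins at base 283 of the window, past the annotated start.
Eef1e1: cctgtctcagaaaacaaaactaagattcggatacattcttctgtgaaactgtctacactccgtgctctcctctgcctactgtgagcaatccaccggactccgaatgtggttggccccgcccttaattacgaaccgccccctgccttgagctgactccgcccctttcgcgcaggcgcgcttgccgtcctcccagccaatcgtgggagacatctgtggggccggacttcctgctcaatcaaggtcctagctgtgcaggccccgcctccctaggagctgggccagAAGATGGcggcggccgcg
Promoter windows were found for 6 of the 9 members, 8 windows in all. The windows of *Eef1a1* and *Gspt1* held neither motif, one of 3 windows of *Eef2k* held an E-box, and no window was found for *Eef1d*, *Eef1g* or *Etf1*. None of the 8 windows has at its annotated start a C followed by at least 4 pyrimidines, the form of a terminal oligopyrimidine tract, which 2.51% of all windows have. Only the annotated base itself was examined, so a tract at a start some bases away would be missed. Whether the mRNAs of these genes begin with such a tract was therefore not tested.

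The multisynthetase complex, to which the product of *Eef1e1* belongs, charges tRNAs that eEF1A then carries to the ribosome. Of 11 listed genes of the complex and of valyl-tRNA synthetase, which joins eEF1, 8 were called lower (72.7% of those tested) and 0 higher. Over all genes tested, 11.0% were called lower. The median log2 fold change of the 11 was -0.83. The methionyl, arginyl and glutamyl-prolyl synthetase genes *Mars*, *Rars* and *Eprs* fell to 52.1%, 56.4% and 56.1% of their vehicle levels (edgeR adjusted p = 0.00329, 0.00382 and 0.00411). The scaffold gene *Aimp2* fell from 119 ± 16.1 CPM to 65.97 ± 4.47 CPM (SD, n = 3; log2 fold change -0.85, edgeR adjusted p = 0.00501). The other scaffold gene, *Aimp1*, had a log2 fold change of -0.32 that did not pass the threshold (edgeR adjusted p = 0.0933). Its exons overlap those of *Tbck* on the opposite strand, as those of *Aimp2* overlap *Eif2ak1* and those of *Mars* overlap *Ddit3*.

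Both release factor genes fell. *Etf1*, on chromosome 18 from 34902785 to 34932007, had 244 CPM, 205 CPM and 208 CPM with vehicle and 118.1 CPM, 158 CPM and 118.2 CPM with AG636. The groups were separate, and AG636 mouse 2 was above the other two. On the log2 scale AG636 differed from vehicle by -0.73 ± 0.15 (standard error, edgeR adjusted p = 0.0101), with an AG636 mean of 60.1% of the vehicle mean. *Gspt1*, on chromosome 16 from 11219292 to 11254325, had 165 CPM, 129 CPM and 151 CPM with vehicle and 104 CPM, 83.7 CPM and 69.1 CPM with AG636. Here too every AG636 mouse was below every vehicle mouse, with AG636 mouse 3 lowest. The difference on the log2 scale was -0.79 ± 0.17 (standard error, edgeR adjusted p = 0.0121), with an AG636 mean of 57.8% of the vehicle mean. An exon of *Gspt1* overlaps *2610020C07Rik* on the opposite strand, which had 113 counts against 3899. Both genes stayed under the threshold whichever mouse was left out, with adjusted p of at most 0.0458 for *Etf1* and 0.0474 for *Gspt1* in edgeR. *Gspt2*, a retrogene paralog of *Gspt1*, had 1 count in all 6 libraries.

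Of the 9 tested genes of termination, ribosome recycling and rescue, 3 were also called lower (33.3%, against 11.0% of all genes tested) and 0 higher. Their median log2 fold change was -0.28. *Hbs1l*, a relative of eRF3 that acts on stalled ribosomes, had 71.9 ± 11.8 CPM with vehicle and 36.9 ± 7.06 CPM with AG636 (SD, n = 3), a log2 fold change of -0.97 (edgeR adjusted p = 0.00780). *Denr*, which helps to remove tRNA from the small subunit after termination, fell to 72.9% of its vehicle level (edgeR adjusted p = 0.0166). *Abce1*, the ATPase that splits the ribosome after release, fell to 65.6% (edgeR adjusted p = 0.0413). *Pelo*, the partner of *Hbs1l*, had 3 counts in all and was not tested. Its exons overlap those of *Gm49395*, which had 0 counts, on the same strand over 739 bases. Reads there may have been dropped, so its low count does not show that it was not expressed.

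Of 17 tested genes for enzymes that modify elongation and release factors, 5 were called lower (29.4%, against 11.0% of all genes tested) and 0 higher. Their median log2 fold change was -0.41. The targets of these enzymes include eIF5A, whose gene is not among the members. *Eef1akmt4*, a lysine methyltransferase of eEF1A, had 26.1 ± 2.10 CPM with vehicle and 9.68 ± 2.18 CPM with AG636 (SD, n = 3), the lowest log2 fold change of all the lists at -1.42 ± 0.21 (standard error, edgeR adjusted p = 0.00400). Its exons overlap *Alg3* on the opposite strand over 143 bases, and *Alg3* had 892 counts against 612. They also overlap *Gm49333*, which had 0 counts, on the same strand over 495 bases, and reads there may have been dropped. *Eef1akmt1*, another methyltransferase of eEF1A, fell to 66.1% of its vehicle level. *Dhps*, which takes part in the synthesis of hypusine on eIF5A and overlaps *Wdr83* on the opposite strand, fell to 56.7%. *Dph3*, which takes part in the synthesis of diphthamide on eEF2, fell to 70.7% and overlaps *Oxnad1*. The adjusted p of these 3 genes was 0.0331, 0.0300 and 0.0383 (edgeR).

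Of 9 tested genes for other cytosolic elongation factors and associated GTPases, 2 were called lower and 0 higher (22.2%), with a median of -0.22. *Eif5a*, the factor that carries hypusine and assists elongation through difficult sequences, had 2195 ± 151 CPM with vehicle and 1509 ± 166 CPM with AG636 (SD, n = 3; log2 fold change -0.54, edgeR adjusted p = 0.0115). *Zc3h15*, a partner of the GTPase encoded by *Drg1*, fell to 76.6% (edgeR adjusted p = 0.0332), and *Drg1* itself, whose exons overlap *Sfi1* on the same strand, had a log2 fold change of -0.26 that did not pass. *Eef1a2*, the paralog of *Eef1a1* known from muscle and neurons, had 0 counts in each library, which at these depths allows up to 0.392 to 0.637 CPM (3 counts, counting error only). Among 10 genes for mitochondrial factors, 3 were called lower and 0 higher (30.0%), with a median of -0.48. *Tufm*, the mitochondrial counterpart of eEF1A, fell to 50.8% of its vehicle level (edgeR adjusted p = 0.00699). *Gfm2* and *Guf1* fell to 65.6% and 68.7% (edgeR adjusted p = 0.0388 and 0.0423), and both overlap other genes on the opposite strand. Over the 6 lists together, 22 of 72 tested genes were called lower (30.6%) and 0 higher, with a median of -0.30, against 11.0% of all genes tested. This count was 12 without AG636 replicate 1 and also without AG636 replicate 3, 13 without vehicle replicate 1 and 14 without vehicle replicate 2. Over all genes, the number called lower also fell in these fits, from 1222 to 630, 452, 701 and 692 in the same order. Without vehicle replicate 3, 25 related genes were called lower and 2 higher, and with no filter on low counts 26 were lower and 1 higher.

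**Figure D3:**
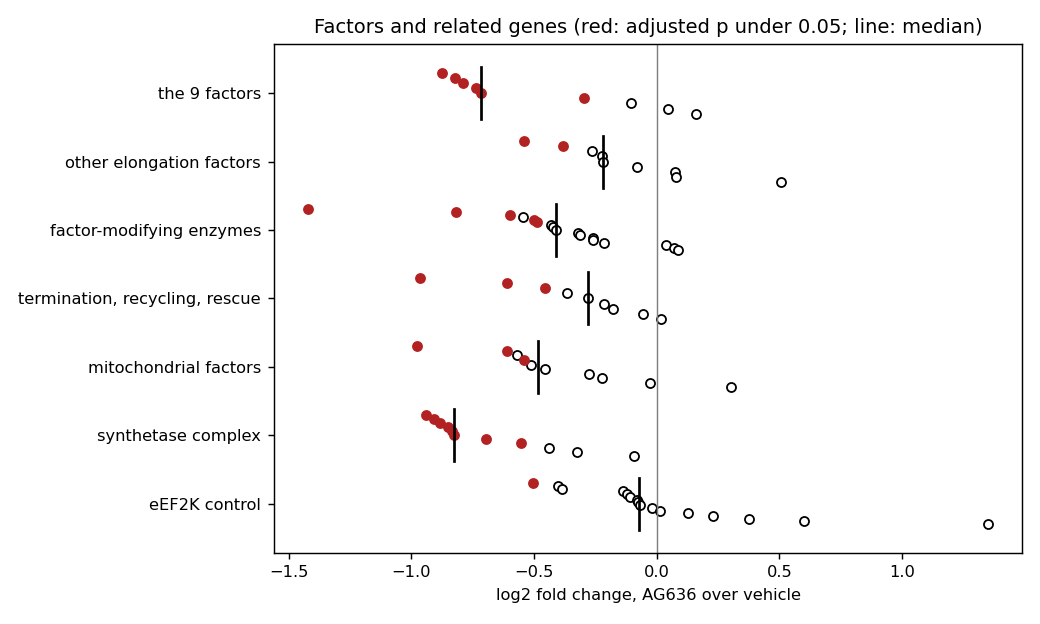
Log2 fold change, AG636 over vehicle, of the 9 factors and of the tested genes of the 6 related lists. Red points have an adjusted p under 0.05 and lines mark the medians, from -0.83 for the synthetase complex to -0.071 for genes that act on eEF2K.

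Ratios of 9 pairs of these genes were compared within libraries, where scaling plays no part. *Eef1b2* to *Eef1g* differed by 0.57 on the log2 scale, with 1.25 ± 0.10 for vehicle and 1.82 ± 0.049 for AG636 (SD, n = 3), without overlap between the groups. The ratio of *Eef1b2* to *Eef1d* was also separate between the groups, with a mean of 2.08 ± 0.087 with vehicle and 2.51 ± 0.23 with AG636. Both had p = 0.1 in the exact permutation test (two-sided), the smallest it can give, and 0.45 after adjustment over the 9 pairs, so neither can pass the threshold in this design. *Eef1d* to *Eef1g* overlapped between the groups, with a difference of 0.15 (exact permutation p = 0.4). The ratio of the release factors, *Gspt1* to *Etf1*, differed by -0.059 between the groups (exact permutation p = 0.9), and the AG636 mice were more spread, at -0.18, -0.92 and -0.77 against -0.57, -0.66 and -0.46 with vehicle. *Eef2* to *Eef1a1* and *Eef2k* to *Eef2* differed by 0.13 and 0.082 (exact permutation p = 0.8 for each), and *Eef1b2* to *Eef1a1* differed by -0.22 (exact permutation p = 0.5). *Eef1e1* differed by -0.47 relative to *Aimp1* and by 0.039 relative to *Aimp2* (exact permutation p = 0.2 and 1). After adjustment over the 9 pairs these 7 values lay between 0.6 and 1.

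**Figure D4:**
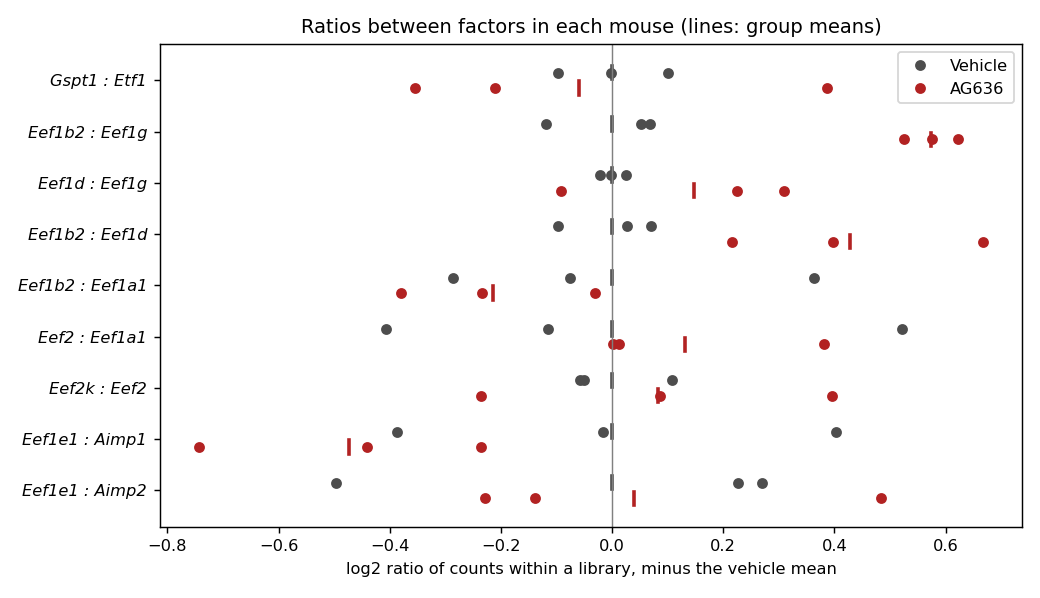
Log2 ratio of the counts of 2 genes within each library, minus the vehicle mean of that pair, for 9 pairs. Points are mice, short lines are group means, and the AG636 points (red) are apart from the vehicle points (grey) for *Eef1b2* to *Eef1g* and *Eef1b2* to *Eef1d*.

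The median profile of the 9 factors, as log2 CPM relative to the vehicle mean, was 0.029, -0.029 and -0.012 in vehicle mice 1 to 3 and -0.50, -0.45 and -0.87 in AG636 mice 1 to 3. AG636 mouse 3 was the lowest of the 6. Among 4081 other genes with a mean of at least 50 CPM, the profile closest to it over the 6 libraries belonged to *Ipo5*, a nuclear import receptor, with a root mean square difference of 0.033 on the log2 scale. *Nup188*, a nuclear pore protein, *Timm9*, a chaperone of mitochondrial protein import, and *Naa50* and *Naa15*, subunits of an N-terminal acetyltransferase that works at the ribosome, followed with 0.050 to 0.060.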

How the data were processed

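RNA was sequenced from sorted I1DN cells of 3 vehicle-treated and 3 AG636-treated mice, grouped by the submitters' labels. Per the paper's methods, the authors prepared QuantSeq 3′ libraries, read 75 bases, removed low-quality reads, trimmed by cutadapt, aligned to mm10 using HISAT2 and counted with Subread. The submitters' processing notes also name featureCounts and give versions 2.0.4 for HISAT2, 1.9.1 for cutadapt and 1.5.0-p3 for Subread, and the paper gives other versions of cutadapt and Subread. The deposited values are raw read counts per gene, unnormalized. Use of strand and handling of multiply mapping reads are not given in the sources used here. Exon lengths in the table were not used in any test. Symbols came from a list of GENCODE gene names for 99.8% of 54838 identifiers. Of the 54809 identifiers present in GENCODE M21, 98.7% had the same bounds there.

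In R 4.3.3, genes were kept by filterByExpr (minimum count 10, minimum total 15), scaled by TMM and compared with edgeR 4.0.16 (quasi-likelihood, no block). The standard error is the fold change over the square root of F. Ratios used counts plus 0.5 and the exact permutation test. The alternatives were DESeq2 1.42.0, limma 3.58.1 (voom), other scalings and filters, a replicate block, stricter thresholds and leaving out each mouse. The members, the 6 related lists, the markers and the tests were chosen with earlier results of these data known. Named were all members, at most 4 called genes per list with the lowest adjusted p, list genes of a described pair, and the 5 closest profiles. *Drg1*, *Pelo*, *Gspt2*, *Prkaa2* and *Eef1a2* were named after their values were seen. One clone name that belongs to a noncoding RNA was removed from the mitochondrial list. Replicates differed by chi-square values of 6.76 to 16.0 per degree of freedom over genes, so each was counted once. The labels do not say more about the animals, and p-values measure the spread between these samples. The tests were checked on simulated counts. There edgeR recovered 14.9% of 67 log2 changes of 0.5, 79.1% of 67 changes of 1 and 100% of 66 changes of 1.5. Only these genes, all above a minimum level, were changed among 10960 tested. In the data 2368 of 11092 genes were called, which makes the adjustment of p milder than in the simulation. The simulated shares therefore do not give the recovery in the data. A gene that was not called may still have changed by a small amount. Floors cover counting error only, since no molecular identifiers are described. Promoter sequences are from RefSeq (GRCm38.p6).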

Additional observations from a re-analysis of the deposited data

How the results depend on the processing

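The tests, scalings and filters were changed one at a time. *Eef1d*, *Eef1g*, *Etf1* and *Gspt1* kept their direction and their call in all 14 alternatives that keep the threshold of 0.05. *Eef1b2* lost its call with library size alone (log2 fold change -0.21), with no filter (-0.32), with the replicate block (-0.30) and without any one mouse (-0.33 to -0.27). *Eef1e1* lost it with library size alone (-0.73), with the replicate block (-0.80) and in 4 of the 6 fits without one mouse (-1.03 to -0.60 over the 6). The direction of *Eef1a1* (-0.29 to 0.023, the highest without vehicle replicate 3), *Eef2* (-0.035 without vehicle replicate 3 to 0.10) and *Eef2k* (-0.056 without AG636 replicate 3 to 0.32), none of them called, turned when one mouse was left out. The number of factors called lower was 4 or 5 without one mouse, in fits that called from 452 of 11221 to 1298 of 11437 genes lower in all, 2 at an adjusted p under 0.01, where 2.93% of all genes were called lower, and stayed within 1.5 times of 6 otherwise. The number of related genes called lower was 10 at that threshold, 14 with a fold change of at least 1.5, 14 with library size alone and 12 to 25 without one mouse. It was 12 without AG636 replicate 1, 12 without AG636 replicate 3, 13 without vehicle replicate 1 and 14 without vehicle replicate 2, where 630, 452, 701 and 692 of all genes were lower, against 1222. The share of all genes called lower with a fold change of at least 1.5 was not counted. No related gene was called higher except 2 without vehicle replicate 3 and 1 with no filter. With library size alone, 913 genes in all were lower and 1483 higher, against 1222 and 1146, and the median of all genes moved from 0.029 to 0.12. The replicate block left 1046 lower and 914 higher. Deviations of same-numbered mice correlated at -0.057, -0.18 and 0.22, and those of differently numbered mice at -0.38 to 0.36. This gave no sign that the numbers pair the mice. With 3 mice per group it cannot decide whether they do. Without one mouse, the ratio of *Gspt1* to *Etf1* ranged from -0.28 to 0.088, *Eef2* to *Eef1a1* from -0.072 to 0.39, *Eef2k* to *Eef2* from -0.075 to 0.24 and *Eef1e1* to *Aimp2* from -0.21 to 0.17, so their signs turned. The cause of these changes was not tested. *Eef1e1* had the fewest counts of the 9 factors, 113 to 355 per library, and the part of depth in its spread was not tested.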
